A study of Mus musculus with 10 samples.

Results

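Immediate early genes are the first genes a cell transcribes after a stimulus. The 10 described here were named by a fixed list of symbols: Fos, Fosb, Jun, Junb, Atf3, Egr1, Egr2, Nr4a1, Ier2 and Arc. All 10 were found among the 57180 genes of the RNA table. By the deposited gene names, 17 of the 69418 CUT&Tag regions were assigned to 9 of them, and Fosb had none. The cells were neural stem/progenitor cells (NSPCs) from mouse brain, labelled either Mina53-KO or WT, with no treatment in either group. Mina53 is the protein encoded by Riox2, a nuclear JmjC-family oxygenase. Poly(A)-selected RNA was sequenced from 3 KO and 3 WT libraries, and CUT&Tag libraries were made from 2 KO and 2 WT samples. The labels used here name neither the CUT&Tag antibody nor the brain region, the age of the mice or how the knockout was made, and they do not say that libraries of a group came from separate animals. P-values therefore measure the spread between libraries, which may be technical.

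Transcription of immediate early genes needs no new protein synthesis, because the factors that switch it on are already in place. Growth factor signalling through the ERK kinases acts on serum response factor and its ternary complex partners, calcium and cyclic AMP signalling act on CREB, and the resulting mRNAs are short-lived. Fos and Jun family proteins pair through leucine zippers to form AP-1, and Fos family proteins need a partner such as Jun to bind DNA. In mature neurons Fos, Egr1 and Arc are widely used as marks of recent activity, and in progenitor cells the same genes respond to mitogens. Several of them are also known to be induced when tissue is dissociated into cells.

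The RNA libraries held 19923010 to 25639204 counts in KO and 23562986 to 25939376 in WT. Riox2 checked the labels: it averaged 3.58 ± 0.279 CPM (counts scaled to 1000000 per library) in KO cells and 18.5 ± 1.39 CPM in WT cells (SD, n = 3 each), for a log2 ratio of -2.37 (SE 0.15; edgeR quasi-likelihood adjusted p = 0.000324). All 10 neural stem and progenitor markers were detected, with Sox2 at 181 CPM in KO and 177 CPM in WT, and by edgeR 1 rose (Vim) and 1 fell (Slc1a3). Of other cell types, 2 of 7 tested astrocyte markers fell (S100b and Sparcl1), 1 of 2 endothelial and mural markers rose (Flt1), 1 of 2 fibroblast and meningeal markers fell (Foxc1), and 0 of 5 oligodendrocyte lineage markers passed. Of 7 microglia markers and 4 erythroid markers none passed the filter on low counts, and the microglia markers summed to 0.166 to 0.428 CPM in KO and 0.231 to 0.576 CPM in WT. The share of counts from mitochondrial genes divided the libraries across genotype. It was 2.68% in KO 1, 2.65% in KO 2 and 2.31% in WT 1, and 4.64% in KO 3, 5.71% in WT 2 and 3.52% in WT 3. The first 3 are called low-share libraries below and the other 3 high-share libraries, the border being 3%. These names describe a measured property of the libraries, and the labels give no batch that matches it.

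None of the 10 immediate early genes changed in KO cells by the edgeR test, at a threshold of 0.05 for the p-value adjusted over all 15298 genes tested. Over all tested genes 3.43% passed. By sign 6 members were higher in KO (Fos, Fosb, Jun, Junb, Ier2 and Atf3) and 4 were lower (Egr1, Egr2, Nr4a1 and Arc), of which Egr1 turned to 0.019 when libraries were scaled by their totals alone. Their median log2 fold change was 0.13, against 0.01 over all tested genes. With the mitochondrial share class as a covariate in the fit, described further on, 3 members were higher and 7 lower by sign, and their median was -0.08. No member had KO libraries that all lay above or all below the WT libraries, where 19% of tested genes did. The unadjusted p was under 0.05 for 0 members, against 13.7% of tested genes, and DESeq2 called 0 members where it called 6.26% of all genes. In bulk libraries such as these, fewer cells that express a gene and less RNA per cell cannot be told apart. The plot of CPM by library shows each gene in the 6 samples.

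**Figure D1:**
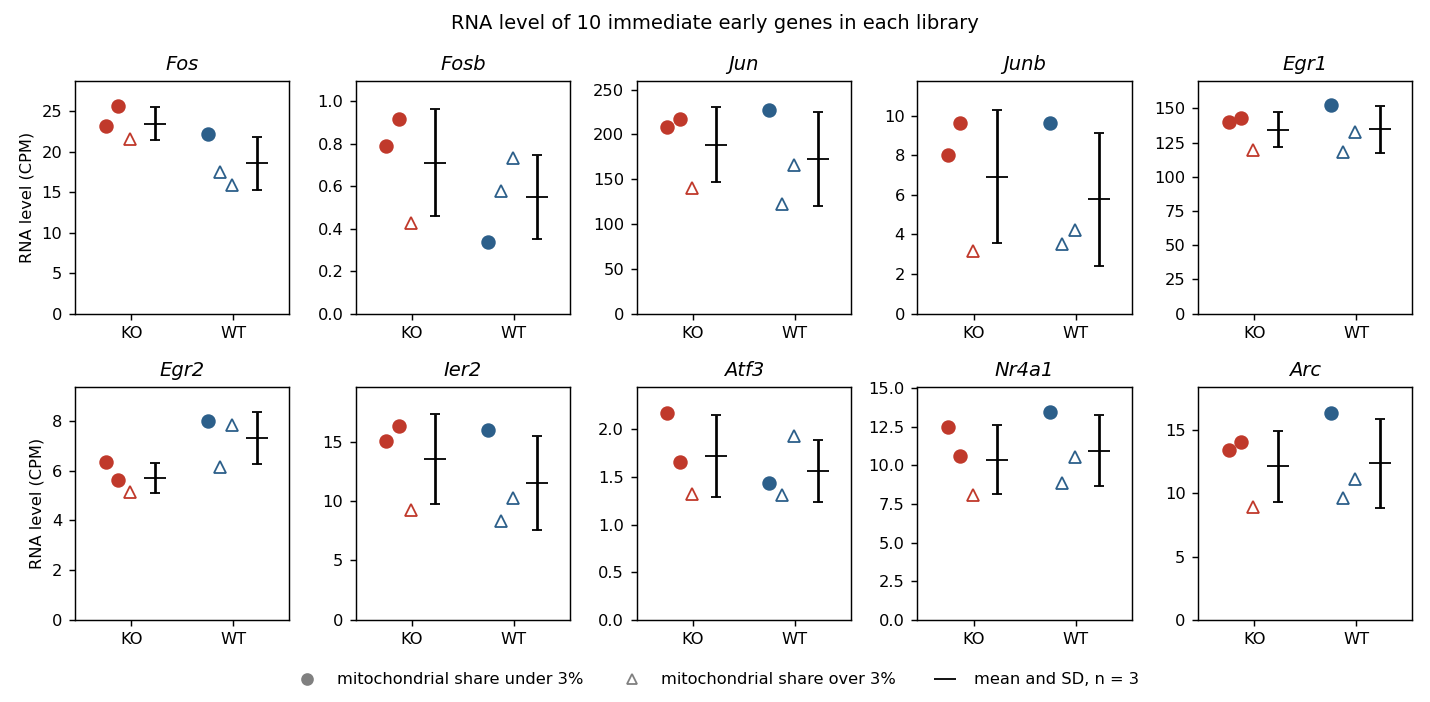
CPM of each immediate early gene in the 3 KO and 3 WT RNA libraries, 1 panel per gene with its own axis from 0. Filled points are libraries with a mitochondrial share under 3%, open points those over 3%, and bars mark group means and SD. KO and WT points overlap in every panel, and Junb runs from 3.15 to 9.60 CPM in KO and from 3.49 to 9.62 CPM in WT.

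The 250 bases before the annotated start site are shown for 4 members of the AP-1 and ATF families, chosen because each also had a CUT&Tag region at its start site. The sequences are from RefSeq (mouse build GRCm38.p6), each written 5′ to 3′ on the gene's own strand, and end at the base before the start. Fos lies on the plus strand (chr12:85473640-85473889), and Jun (chr4:95052223-95052472), Junb (chr8:84978749-84978998) and Atf3 (chr1:191183334-191183583) lie on the minus strand. Capitals mark matches to TGACG, the half-site of the cyclic AMP response element, read on either strand (CGTCA where it is on the other strand), and to the TATA box sequence TATAAA, also searched on both strands. No match overlaps another in the printed windows.
Fos: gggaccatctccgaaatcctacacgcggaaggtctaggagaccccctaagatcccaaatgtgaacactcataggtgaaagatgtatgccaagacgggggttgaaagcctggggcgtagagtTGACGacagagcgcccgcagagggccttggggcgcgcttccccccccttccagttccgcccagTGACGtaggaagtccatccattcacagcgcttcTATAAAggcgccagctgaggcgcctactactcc
Jun: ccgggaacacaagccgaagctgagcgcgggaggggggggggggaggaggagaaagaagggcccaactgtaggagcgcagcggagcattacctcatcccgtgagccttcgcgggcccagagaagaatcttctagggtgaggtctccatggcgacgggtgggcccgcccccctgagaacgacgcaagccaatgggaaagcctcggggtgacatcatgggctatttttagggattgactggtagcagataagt
Junb: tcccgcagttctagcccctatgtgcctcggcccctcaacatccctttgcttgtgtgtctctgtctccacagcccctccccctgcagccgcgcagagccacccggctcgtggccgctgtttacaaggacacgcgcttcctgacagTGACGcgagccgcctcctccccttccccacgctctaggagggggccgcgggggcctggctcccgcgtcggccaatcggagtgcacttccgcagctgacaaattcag
Atf3: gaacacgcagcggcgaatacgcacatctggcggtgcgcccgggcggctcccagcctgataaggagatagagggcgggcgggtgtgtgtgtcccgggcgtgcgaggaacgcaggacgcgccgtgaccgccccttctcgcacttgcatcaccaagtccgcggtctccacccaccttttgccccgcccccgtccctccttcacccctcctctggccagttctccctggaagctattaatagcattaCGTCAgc

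In these windows Fos held TGACG at 129 and 66 bases before the start, the match at 66 bases being the letters of its well-studied CREB site, and TATAAA at 33 bases. Junb held TGACG at 106 bases and Atf3 at 7 bases, while the Jun window held neither motif. RefSeq windows were matched for 7 of the 10 members (not for Egr1, Ier2 and Arc). TGACG was in at least 1 window of 6 of those 7 genes, against 17.7% of 32817 mouse promoter windows of the same length. Here and below members are counted by gene and the shares by single window, and a gene with several windows can match more easily. TATAAA was found for 1 of the 7, against 12.4% of windows. The CArG box, which serum response factor binds, was found for 1 of the 7, Egr2, in 4 of its 5 alternative windows, against 1.47% of windows. Several of these Egr2 windows overlap and hold the same match, so they are not separate sites. Bases farther upstream than 250 were not searched, so a motif missing here may still lie outside the window. These matches describe letters in the windows and are not measurements of binding.

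The AP-1 genes code for the leucine zipper proteins Fos, FosB, Jun and JunB. Fos had 23.2, 25.6 and 21.6 CPM in KO 1, 2 and 3, against 22.2, 17.5 and 15.9 CPM in WT 1, 2 and 3. The groups overlapped through WT 1 alone, which lay above KO 3. The mean was 23.5 ± 2.02 CPM in KO and 18.5 ± 3.26 CPM in WT (SD, n = 3 each). The log2 fold change was 0.34 (SE 0.15, 95% interval -0.016 to 0.70; edgeR adjusted p = 0.393). Fosb, whose splice variant ΔFosB builds up with repeated stimulation in neurons, was close to the limit of detection at 8 to 22 counts per library. It had 0.791, 0.914 and 0.428 CPM in KO cells, against 0.338, 0.576 and 0.733 CPM in WT cells, and the groups overlapped. Its log2 fold change of 0.36 had a 95% interval of -0.62 to 1.33, so at this depth a change of either sign within those bounds could not be resolved.

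Jun, the partner shared by all Fos family proteins, was the most abundant member. It had 208, 217 and 140.5 CPM in KO 1, 2 and 3, against 228, 123 and 166 CPM in WT 1, 2 and 3, with KO 3 far below the other KO libraries and WT 1 far above the other WT libraries. Its log2 fold change was 0.13 (SE 0.24, 95% interval -0.43 to 0.69; edgeR adjusted p = 0.915). Junb, which can pair with Fos proteins and is known to restrain Jun, had 8.01, 9.60 and 3.15 CPM in KO 1, 2 and 3, against 9.62, 3.49 and 4.20 CPM in WT 1, 2 and 3. Each group held both high and low libraries: KO 1, KO 2 and WT 1 were all above 8 CPM, and KO 3, WT 2 and WT 3 all below 4.3 CPM. The log2 fold change of Junb was 0.26, with the widest interval of the 10 members, -0.84 to 1.36 (SE 0.48; edgeR adjusted p = 0.915). Its biological coefficient of variation, the spread between libraries of a group beyond counting error, was 41.4%, against 22.1% on the trend for genes of its abundance.

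Atf3 codes for a stress-induced factor of the ATF/CREB family that often represses its targets. It was low, at 2.17, 1.66 and 1.32 CPM in KO cells and 1.43, 1.32 and 1.93 CPM in WT cells, and the groups overlapped fully. Its log2 fold change was 0.13 (SE 0.28, 95% interval -0.51 to 0.77; edgeR adjusted p = 0.924).

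Among the zinc finger genes, Egr1 was the most evenly expressed member. It had 140.2, 143 and 119.7 CPM in KO cells, against 152.8, 118.4 and 133.1 CPM in WT cells, with means of 134 ± 12.8 CPM in KO and 135 ± 17.3 CPM in WT (SD, n = 3 each). The log2 fold change of Egr1 was -0.0052, and its 95% interval of -0.30 to 0.29 (edgeR) was the narrowest of the 10. Egr2, best known for its part in hindbrain patterning and myelination, had 6.33, 5.61 and 5.14 CPM in KO cells, against 7.98, 6.13 and 7.83 CPM in WT cells. The overlap came from WT 2, which lay below KO 1. Egr2 had the most negative log2 fold change of the 10, -0.36 (SE 0.17, 95% interval -0.76 to 0.034; edgeR adjusted p = 0.428).

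The other 3 members are a nuclear receptor, a small nuclear protein and a synaptic protein. Nr4a1, an orphan nuclear receptor, had 12.5, 10.6 and 8.06 CPM in KO cells and 13.4, 8.88 and 10.5 CPM in WT cells, a log2 fold change of -0.08 (SE 0.21; edgeR adjusted p = 0.940). Ier2, induced by growth factors along with Fos, had 15.0, 16.3 and 9.22 CPM in KO cells and 15.996, 8.35 and 10.2 CPM in WT cells, a log2 fold change of 0.23 (SE 0.29; edgeR adjusted p = 0.869). Arc, which forms capsid-like particles and controls AMPA receptor uptake at synapses, had 13.4, 14.0 and 8.91 CPM in KO cells and 16.3, 9.62 and 11.1 CPM in WT cells, a log2 fold change of -0.03 (SE 0.25; edgeR adjusted p = 0.983). In each of the 3 genes KO 3 was the lowest KO library and WT 1 the highest WT library, so that KO and WT ranges lay over each other. Arc is best known from neurons, and of 11 neuron markers 9 were tested, with 2 higher in KO (Nefm and Nefl) and 0 lower in the edgeR fit, where 1.77% of all tested genes were higher and 1.66% lower. With the mitochondrial class as covariate 5 of the 9 were higher (Map2, Dcx and Tubb3 as well) and 0 lower, where 5.9% of all genes were higher and 5.18% lower. The 11 markers summed to 693 to 964 CPM in KO and 543 to 745 CPM in WT, mostly Map2, while Rbfox3, which marks mature neurons, averaged 0.955 CPM in KO and 0.988 CPM in WT. The part of neuronal RNA in the level of Arc was not tested.

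Per kilobase of the deposited gene length, the 10 genes stood in the same order in KO and in WT. Jun led, with 59.1 CPM per kb in KO and 54.1 in WT, followed by Egr1 with 30.0 in KO and 30.1 in WT. Fos had 11.1 CPM per kb in KO and 8.80 in WT, and Ier2 had 8.88 in KO and 7.56 in WT. The ranges of Fos and Ier2 overlapped in both groups, so their order was not separated by the spread between libraries. The same held for each neighbouring pair of Nr4a1 (4.19 CPM per kb in KO, 4.42 in WT), Arc (3.97 in KO, 4.05 in WT), Junb (3.83 in KO, 3.19 in WT) and Egr2 (1.92 in KO, 2.47 in WT). Atf3 and Fosb came last, with Fosb at 0.188 CPM per kb in KO and 0.145 in WT. Between neighbours from Jun to Fos, from Ier2 to Nr4a1 and from Egr2 to Fosb the ranges did not overlap in either group. Jun thus stood at the 91.0th percentile of tested genes in KO and the 90.1th in WT, and Fosb at the 3.59th percentile in KO and the 2.39th in WT.

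For most members the libraries divided by mitochondrial share and not by genotype. All 10 members had a higher mean log2 CPM in the 3 low-share libraries (KO 1, KO 2, WT 1) than in the 3 high-share libraries (KO 3, WT 2, WT 3). Of all tested genes 50.4% did. For 7 of them (Fos, Jun, Junb, Egr1, Ier2, Nr4a1 and Arc) every low-share library lay above every high-share library, which held for 21.3% of tested genes. The reverse held for 0 members and for 20.5% of tested genes. The median log2 difference of low-share minus high-share libraries was 0.39 over the 10 members and 0.0046 over all tested genes. These groups were formed from a measured property of the same libraries, so the differences are given with no test.

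Junb differed most. It averaged 9.08 CPM in low-share libraries and 3.62 CPM in high-share libraries, a log2 difference of 1.31, and only 58 of the 15298 tested genes (0.379%) had one as large. Ier2 followed with a log2 difference of 0.77 (15.8 CPM in low-share and 9.26 CPM in high-share libraries), then Jun with 0.61 (218 and 143 CPM), Arc with 0.56 (14.6 and 9.88 CPM), Nr4a1 with 0.41 and Fos with 0.37. The smallest differences were those of Egr1 (0.23), Atf3 (0.20), Fosb (0.14) and Egr2 (0.07).

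Within the low-share libraries, the 2 KO libraries set against WT 1 gave log2 differences of 0.13 for Fos, -0.10 for Jun, -0.13 for Junb, -0.03 for Ier2 and -0.42 for Egr2. Within the high-share libraries, KO 3 set against WT 2 and WT 3 gave 0.37 for Fos, -0.03 for Jun, -0.28 for Junb, -0.0019 for Ier2 and -0.42 for Egr2. The signs of Jun, Junb and Ier2 within both classes were thus opposite to those of the comparison over all 6 libraries. Nr4a1 (-0.22 in low-share, -0.26 in high-share libraries) and Arc (-0.25 and -0.21) were lower in KO in both classes, whereas Fosb (1.15 and -0.52) and Atf3 (0.39 and -0.25) differed in sign between them. Each class holds 1 library of one genotype, so these values have no error of their own.

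**Figure D2:**
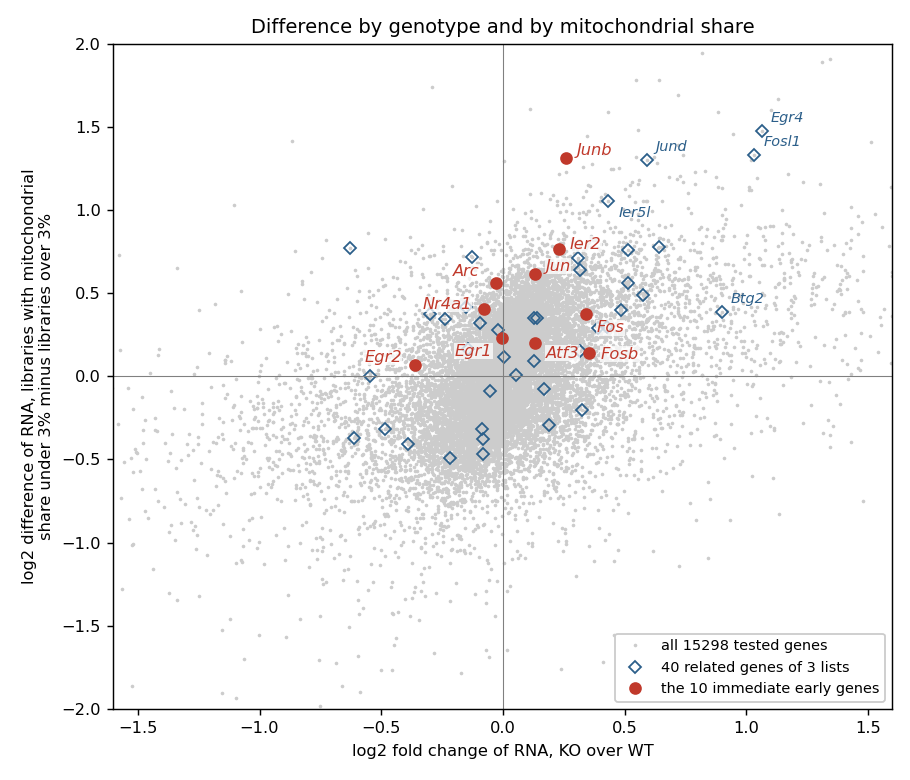
For each tested gene, the log2 fold change of KO over WT (horizontal) against the log2 difference of low-share minus high-share libraries (vertical); red points are the 10 members, blue diamonds 40 related genes of the AP-1, Egr and other immediate early lists, and 257 genes lie beyond the axes. All 10 members lie above 0 on the vertical axis, as do 50.4% of tested genes, with Junb at 1.31. On the horizontal axis the members lie on both sides of 0.

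With the mitochondrial class as a covariate in edgeR, again 0 of the 10 members passed, while 11.1% of all genes did. The common biological coefficient of variation was 9.06% in that fit and 17.9% without the covariate. The class was set from a measured property of the same libraries and is not balanced between KO and WT. The p-values and intervals of that fit take the class as known and leave this choice out. The 95% interval of Junb narrowed to -0.54 to 0.15 around a log2 fold change of -0.20, and that of Ier2 to -0.28 to 0.24 around -0.02. Jun stood at -0.07 (95% interval -0.30 to 0.16), so for these 3 genes the sign turned while the interval still held 0. Fos, at 0.25 (SE 0.10, 95% interval 0.03 to 0.48), had an edgeR adjusted p of 0.155, and Egr2, at -0.43 (SE 0.15, 95% interval -0.77 to -0.10), one of 0.104. Fos and Egr2 were the 2 members whose interval left out 0 in that fit before adjustment over all genes, in opposite directions. Nr4a1 (-0.24) and Arc (-0.24) had edgeR adjusted p of 0.293 and 0.246.

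**Figure D3:**
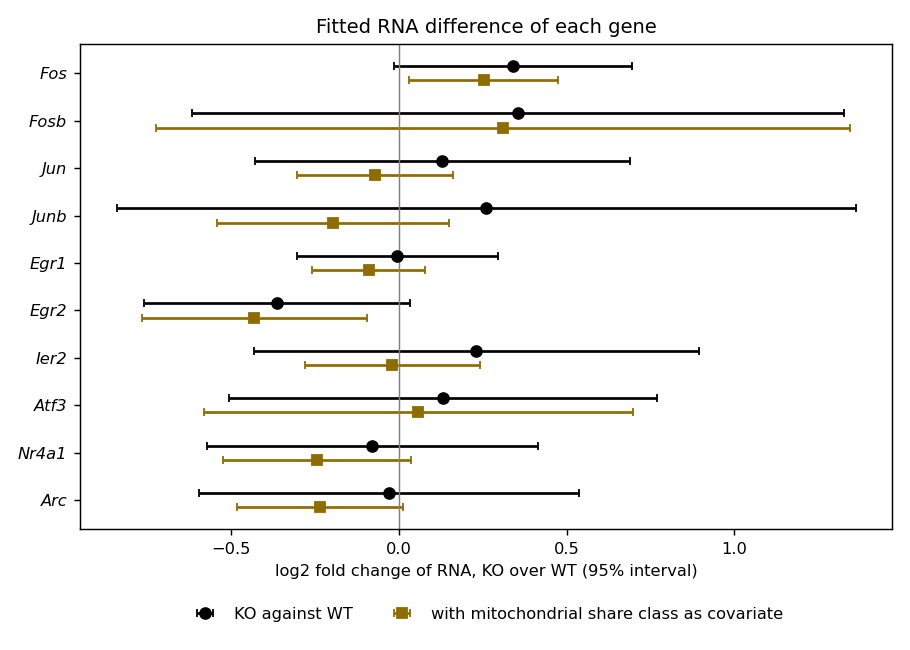
Log2 fold change of RNA in KO over WT for each member, as a point with its 95% interval, without and with the mitochondrial share class as a covariate in edgeR. With the covariate the intervals of Jun, Junb and Ier2 are narrower and their points move below 0, and no member is called in either fit.

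Over the 6 libraries, the members most alike in profile were Jun and Ier2, with a root mean square distance of 0.093 between their log2 CPM profiles, each centred on its own mean. Jun and Arc (0.108), Nr4a1 and Arc (0.117) and Egr1 and Nr4a1 (0.139) came next, and Fosb and Junb were farthest apart (0.731). Outside the 10 members, the 5 genes nearest to Fos among 10252 genes of at least 3 mean log2 CPM were Nlrx1 (0.0503), A030001D20Rik (0.0509), Mtarc2 (0.0543), Mrgbp (0.0616) and Slx1b (0.0618). None of these was called by edgeR, and the 6 libraries share the genotype and mitochondrial share differences described above.

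Genes around the immediate early response were read from lists chosen by their known roles. Of 20 upstream kinases and transcription factors 0 passed the edgeR test, and their median log2 fold change was -0.07. The smallest p-values there belonged to Elk3, a ternary complex factor (0.37, adjusted p = 0.148), the ribosomal S6 kinases Rps6ka2 (-0.38, adjusted p = 0.195) and Rps6ka1 (-0.44, adjusted p = 0.385), and Elk4, another ternary complex factor (0.18, adjusted p = 0.660). Of the 11 other AP-1 family genes tested, of 13 listed, 0 passed (median -0.08), with Maf at -0.48, Atf7 at -0.39 and Fosl1 at 1.03. Of 6 other Egr, Nab and Nr4a genes 0 passed (median 0.12). In that list Nr4a2 stood at -0.61 (edgeR adjusted p = 0.153), Egr4 at 1.06 (adjusted p = 0.384), and the Egr corepressors Nab2 and Nab1 at 0.31 and 0.19. Of 8 attenuators tested, which are dual-specificity phosphatases, mRNA decay factors and the NF-kB inhibitor Nfkbia, 0 passed (median 0.01), with Zfp36l1 at -0.40 (adjusted p = 0.0761), Dusp6 at 0.13, Zfp36l2 at 0.09 and Dusp4 at 0.11. Of 11 heat shock genes 0 passed (median 0.15), among them Hspe1 (0.32), Hsph1 (0.19), Hspa1a (0.56) and Hspd1 (0.19).

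Among 23 other immediate early genes 1 rose and 0 fell (median 0.17), where 1.77% of all tested genes rose and 1.66% fell. The gene that rose was Btg2, an antiproliferative gene known for its expression in neurogenic progenitors. Btg2 had 129, 130.1 and 129 CPM in KO cells, against 75.3, 61.8 and 71.0 CPM in WT cells, so all 3 KO libraries lay above all 3 WT libraries. Its log2 fold change was 0.90 (SE 0.11; edgeR adjusted p = 0.00492), and 0.78 within low-share and 0.96 within high-share libraries. Trib1, a pseudokinase gene, missed the threshold at -0.55 (edgeR adjusted p = 0.0569), as did Sgk1 at 0.31 (adjusted p = 0.230) and Csrnp1 at 0.49 (adjusted p = 0.311).

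With the mitochondrial class as a covariate, where 5.9% of all genes were called higher and 5.18% lower, edgeR called 11 of the 79 tested genes of these 6 lists. The 4 higher in KO were Elk3, Nab1, Btg2 and Hspd1, and the 7 lower were Rps6ka1, Rps6ka2, Maf, Atf7, Trib1, Ier3 and Zfp36l1. In the same fit 3 of the 10 neural stem and progenitor markers were called higher and 2 lower. Trib1 had an adjusted p of 0.000504, Rps6ka1 of 0.0015 and Zfp36l1 of 0.00689 in that edgeR fit, which takes as known a class set from the same libraries. Every low-share library lay above every high-share library for 8 of the 23 other immediate early genes and the reverse held for 3, where over all tested genes the shares were 21.3% and 20.5%. The 2 counts were 5 and 5 of the 20 upstream kinases and transcription factors, 4 and 2 of the 11 other AP-1 family genes, 2 and 0 of the 6 other Egr, Nab and Nr4a genes, 3 and 0 of the 8 attenuators and 5 and 0 of the 11 heat shock genes. Some related genes, picked here after their values were seen, also had large differences between the share classes: the log2 difference of low-share minus high-share libraries was 1.48 for Egr4, 1.33 for Fosl1, 1.30 for Jund and 1.06 for Ier5l.

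In the CUT&Tag data, 7 of the 10 members (70%) had a region within 1 kb of their start site, as did 49.8% of the genes tested in RNA. Of these, Fos, Jun and Egr1 had a start-site region called in all 4 libraries, against 14.8% of RNA-tested genes. Nr4a1 and Arc were reached only by intergenic regions over 7 kb away. The 2 KO libraries held 4038765 and 3369232 reads in regions and the 2 WT libraries 3125267 and 2913959, so a member region rested on 12 to 258 reads per library. No member region passed the edgeR test at an adjusted p of 0.05, where 0.00722% of 69209 tested regions did. The unadjusted p was under 0.05 in 3 of the 17 member regions, against 5.35% of all regions, and in 8 of the 17 the KO and WT libraries did not overlap, against 34.7%. All 3 were start-site regions with less signal in KO, a result that 7.15% of the 14081 tested start-site regions shared. Of the 9 start-site regions of members, 8 were lower in KO by sign, against 61.8% of all regions within 1 kb of a start site. In 6 of the 9 both KO libraries lay below both WT libraries, against 27.1% of such regions. Their median log2 fold change was -0.33, against -0.11 over all start-site regions, and -0.23 over all 17 member regions, against 0.01 over all regions. The start-site regions of Junb, Egr2, Ier2 and Atf3 were called as peaks in WT libraries only. Their lower signal in KO can in part follow from that selection, so these counts are no evidence of a change.

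At Fos, the region over the start site (chr12:85520390-85521089, in build GRCm39 as for all regions) had 33.7 and 29.3 CPM in KO, against 35.6 and 38.4 CPM in WT. Both KO libraries were lower, with a log2 fold change of -0.23 (SE 0.20). At Jun (chr4:94940271-94940735) it had 18.8 and 29.3 CPM in KO, against 26.8 and 32.9 CPM in WT, and the groups overlapped (-0.32, SE 0.22). Junb had a 200-bp region at its start (chr8:85705280-85705479), called in 1 WT library, with 14.4 and 12.2 CPM in KO, against 15.2 and 16.6 CPM in WT. The log2 fold change there was -0.25 (SE 0.31), and -0.08 in a second Junb region between 2 and 3 kb from the start. At Atf3 (chr1:190915284-190915532) the signal was 5.12 and 8.30 CPM in KO, against 11.3 and 14.9 CPM in WT. Both KO libraries were lower, by a log2 fold change of -0.97 (SE 0.41, edgeR unadjusted p = 0.0176, adjusted p = 0.900). The signal rested on 21 and 28 reads in KO and 35 and 43 reads in WT. The Atf3 region was called as a peak in 1 WT library and in no KO library, so its lower KO signal can in part follow from that selection.

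Egr1 had a pair of adjacent start-site regions that differed from each other. The first (chr18:34992828-34993262, 435 bp) had 35.9 and 35.9 CPM in KO, against 49.2 and 49.8 CPM in WT, a log2 fold change of -0.46 (SE 0.19, unadjusted p = 0.0125, edgeR adjusted p = 0.861). The second (chr18:34993459-34994506, 1048 bp) had 62.9 and 69.7 CPM in KO, against 66.0 and 59.9 CPM in WT, a log2 fold change of 0.07. The difference between the regions was not tested. By mean CPM they stood at the 98.0th and 99.6th percentile of start-site regions, the highest of any member. At Egr2, the region over the annotated start (chr10:67374505-67374910) had 16.8 and 19.6 CPM in KO, against 26.8 and 18.7 CPM in WT, and the groups overlapped (-0.33, SE 0.26). A smaller Egr2 region assigned at 520 bp from a start (chr10:67371933-67372132) had 5.85 and 7.71 CPM in KO, against 9.70 and 13.1 CPM in WT (-0.76, SE 0.43). Both KO libraries were lower there. Neither Egr2 region was called as a peak in a KO library, so their lower KO signal can in part follow from that selection.

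Ier2 had the smallest p among the member regions. Its start-site region (chr8:85389136-85389564) had 17.6 and 12.7 CPM in KO, against 20.4 and 34.6 CPM in WT. Both KO libraries were lower, by a log2 fold change of -0.84 (SE 0.25, edgeR unadjusted p = 0.00092). However, the edgeR p adjusted over all regions was 0.583, and WT 2 was well above WT 1. The region was called as a peak in 1 WT library and in no KO library, so its lower KO signal and unadjusted p can in part follow from that selection. The distal regions of Nr4a1 and Arc had the opposite sign or none. At Nr4a1, the region at -7681 bp had 16.8 and 17.8 CPM in KO, against 14.9 and 14.2 CPM in WT (0.25, SE 0.30). At Arc, the region 13142 bp downstream had 19.3 and 12.7 CPM in KO, against 7.44 and 15.2 CPM in WT (0.52, SE 0.33). Both regions were called as peaks in KO libraries only, so their higher KO signal can in part follow from that selection. The other region of each gene, at 0.01 for Nr4a1 and 0.28 for Arc, was called in both groups. In the authors' deposited table all 17 member regions have a q-value of 1, and 1 has a p-value under 0.05, the Nr4a1 region at -7681 bp (0.0360). Such a p-value is given there to 2.34% of all regions.

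**Figure D4:**
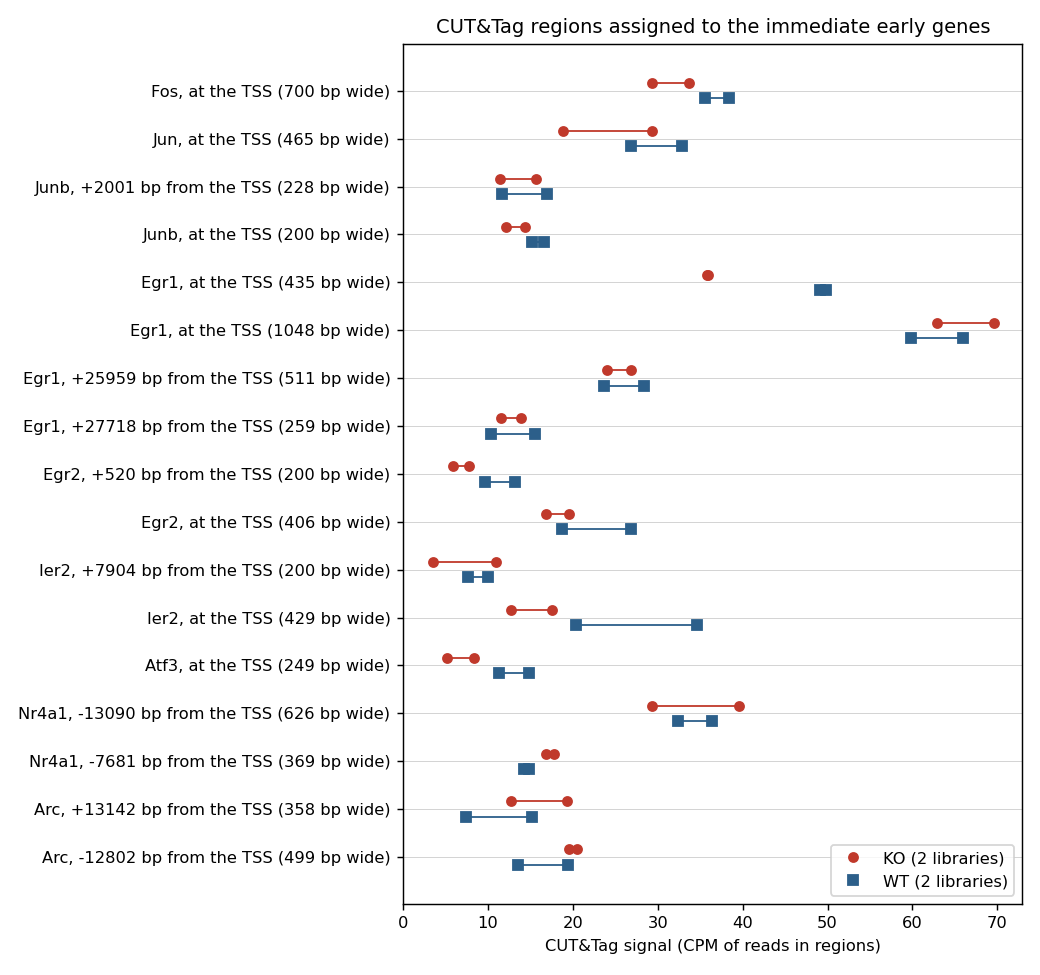
CUT&Tag CPM in the 2 KO and 2 WT libraries for each of the 17 regions assigned to a member. The axis is linear, and regions are labelled by distance from the start site in bp. KO points lie below both WT points in 6 of the 9 regions within 1 kb of a start, with the largest fold changes at Atf3 and Ier2. The groups overlap at Jun and in 1 such region each of Egr1 and Egr2. The start-site regions of Junb, Egr2, Ier2 and Atf3 were called as peaks in WT libraries only.

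Summed over all regions assigned to a gene, 0 of the 9 members with a region passed the edgeR test, where 0.088% of 13632 genes did. By sign 7 were lower and 2 higher in KO, with a median log2 fold change of -0.18, against 0.0031 over all genes. The sums of Atf3 and Egr2 rested on regions called as peaks in WT libraries only. Ier2 was lowest in p, at -0.62 (SE 0.22, unadjusted p = 0.00483, edgeR adjusted p = 0.439), and Atf3 lowest in fold change, at -0.93 (SE 0.43, adjusted p = 0.619). The sums of Fos (-0.18), Jun (-0.27), Junb (-0.12), Egr1 (-0.06) and Egr2 (-0.41) were lower and those of Nr4a1 (0.14) and Arc (0.43) higher by sign. In the fit without covariates, the RNA of Fos, Jun, Junb, Ier2, Atf3, Nr4a1 and Arc had the opposite sign to the CUT&Tag sum. With the mitochondrial class as covariate, the RNA of Jun (-0.07), Junb (-0.20) and Ier2 (-0.02) had the same sign as the sum. Fos (0.25), Atf3 (0.06), Nr4a1 (-0.24) and Arc (-0.24) kept the opposite sign in that fit. The RNA of Egr1 (except when scaled by library totals) and Egr2 had the same sign as the CUT&Tag sum. None of these differences passed its test in either assay.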

How the data were processed

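RNA was measured in 3 Mina53-KO and 3 WT libraries of mouse NSPCs, and CUT&Tag in 2 KO and 2 WT libraries. The authors deposited estimated counts per gene, made with a stranded mRNA kit per the labels' protocols. HISAT2, StringTie and build GRCm39 stand in the submitters' processing notes, and the sources used here give no strand setting, peak caller or versions. Counts were whole for 9 of the 10 members, and for Jun in all but 2 libraries; they were rounded. The deposited CUT&Tag table gives counts and RPM signal per region with the authors' p-values, q-values, log2 fold changes, gene names and distances to the start site. Counts were tested; RPM served to recover library totals of 47732697 to 66934404.

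R 4.3.3 was used with edgeR 4.0.16, limma 3.58.1 and DESeq2 1.42.0. The edgeR fit (filterByExpr with a minimum count of 10, TMM, robust glmQLFit, glmQLFTest, Benjamini-Hochberg over all features, threshold 0.05) compared KO with WT without covariates. CPM used TMM-scaled libraries, and log2 CPM a prior count of 2. The tests were tried on simulated data.

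Alternatives were other scalings and filters, DESeq2, a replicate block, the mitochondrial class (border 3%) as covariate, and leaving out each library. The members and lists of related genes were chosen with earlier results of these data known, so no p is adjusted over a list. Genes named from lists are up to 4 with the smallest p and every called one (1 such gene is not reported here), and near neighbours of Fos the 5 nearest. Standard errors are the log2 fold change divided by the square root of F, and intervals are at 95%.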

Additional observations from a re-analysis of the deposited data

How the results depend on the processing

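No member was called in RNA or CUT&Tag under any alternative run in which it was tested. Fosb was not tested in RNA under the filter of 1 CPM in at least 3 libraries. Nr4a1 and Arc were not tested per gene when only regions within 1 kb were used. Over all genes, the RNA count of 525 became 958 with DESeq2, 229 with a replicate block, 1695 with the mitochondrial class as covariate, and 145 to 506 when 1 library was left out (179 without KO 1 and without KO 2, 313 without WT 2, 145 without WT 3). Replicate numbers did not pair the RNA libraries (correlations of deviations 0.46, -0.369 and 0.27 for numbers 1, 2 and 3) or the CUT&Tag libraries (0.0155), and the block changed no member's call. By sign, Egr1 turned to 0.019 with library totals, and Jun to -0.071, Junb to -0.20 and Ier2 to -0.020 with the covariate. Without 1 library, log2 fold changes ran from -0.078 to 0.31 for Atf3, -0.059 to 0.84 for Junb, -0.10 to 0.094 for Egr1, -0.24 to 0.093 for Nr4a1, -0.19 to 0.22 for Arc and -0.073 to 0.38 for Jun. Ier2 ran from 0.036 to 0.54 and Fosb from 0.11 to 0.62, Fos from 0.23 to 0.49 and Egr2 from -0.48 to -0.30. In checks added after the data were seen, the count of 1 in the 6 lists of related genes became 4 with DESeq2, 2 without a count filter and 11 with the covariate. Btg2 (0.81 to 0.96) and Riox2 (-2.43 to -2.31) were called under every RNA alternative run. Over all CUT&Tag regions, the count of 5 became 9 with a replicate block and 1 to 15 without 1 library (1 without KO 1, 2 without KO 2, 3 without WT 1, 15 without WT 2). Per gene, the count of 12 became 4 with library totals, 1 with DESeq2, 5 with regions within 1 kb only, and 4 to 17 without 1 library. Per-gene log2 fold changes without 1 library ran from -0.61 to 0.018 for Jun, -0.012 to 0.26 for Nr4a1 and -0.27 to 0.035 for Junb, and from -1.11 to -0.29 for Ier2, -0.29 to -0.079 for Fos, 0.26 to 0.57 for Arc, -1.29 to -0.61 for Atf3, -0.54 to -0.29 for Egr2 and -0.073 to -0.051 for Egr1. The cause of these shifts was not tested. With 2 or 3 libraries a group, intervals of low genes such as Fosb and Atf3 were wide.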
